A study of Mus musculus with 6 samples.

Results

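The 10 genes described here encode transcription factors of the pluripotency network of mouse embryonic stem cells (ESCs). They were taken by gene symbol: Pou5f1, Sox2, Nanog, Klf4, Klf2, Esrrb, Tfcp2l1, Nr0b1, Nr5a2 and Zfp42. Each had 1 entry among the 13743 entries of the deposited table, and all 10 passed the filter of 1 RPKM on average over all libraries, which 11428 entries passed. RPKM divides a gene's reads by its transcript length and by the library's mapped reads, so levels can be compared between genes. All libraries came from ESCs of the genotype Dgcr8-/- on a C57/129 strain background, and RNA was taken 48 h after transfection. Dgcr8 is a subunit of the Microprocessor, and cells that lack it do not make canonical microRNAs. The 3 groups had 2 libraries each: CTR, miR-294 (a microRNA mimic) and siMbd2 (a siRNA against Mbd2), the oligonucleotides being given at 50 nM. The labels do not tell what the CTR transfection contained, and the header of the table says mock. Nor do they say whether the libraries of a group were separate cultures or the line 1 clone, so p-values measure only the spread between these libraries, which may be technical.

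Oct4 (encoded by Pou5f1), Sox2 and Nanog bind many enhancers together and are known as the core of the network. Oct4 and Sox2 often sit side by side on a composite DNA element, and the amount of Oct4 is known to affect whether ESCs self-renew or differentiate. The other factors mark or sustain the naive state, which is the ground state of mouse ESCs: Klf4 and Tfcp2l1 act downstream of LIF and STAT3 signalling, Esrrb is a target of Nanog and of GSK3 inhibition, and Klf2 is tied to MEK inhibition. miR-294 belongs to the miR-290 cluster, whose members with a common seed promote the ESC cell cycle, and Mbd2 encodes a reader of methylated CpG in the NuRD complex.

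The mimic's mature sequence is shown first because its seed, bases 2 to 8 from the 5′ end in capitals, defines the sites sought in the 10 mRNAs. Beneath it are relatives from the same cluster on chromosome 7, where miR-294-3p lies at chr7:3220691-3220712 on the plus strand (RefSeq, GRCm38.p6, the same primary assembly as mm10). miR-291a-3p and miR-295-3p have the seed of miR-294-3p, and the last pair of sequences have the seeds AAGUGCC and AAGUGCA.
miR-294-3p: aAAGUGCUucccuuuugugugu
miR-291a-3p: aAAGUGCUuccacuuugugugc
miR-295-3p: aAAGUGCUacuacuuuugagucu
miR-290a-3p: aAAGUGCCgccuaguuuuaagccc
miR-291b-3p: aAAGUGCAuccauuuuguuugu

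Of the 10 mRNAs, 1 held a match to this seed. The sites sought on the transcript strand were AGCACTTA, AGCACTT and GCACTTA, where the first contains the other two. Pou5f1, Sox2, Nanog, Klf4, Klf2, Esrrb, Nr0b1, Nr5a2 and Zfp42 had none in the longest annotated 3′ UTR, in any other annotated 3′ UTR or in the coding sequence (GENCODE vM21, GRCm38). Tfcp2l1, which encodes a grainyhead-family factor of the naive state, had 1 match, an AGCACTT at position 5771 of its 7734-base 3′ UTR. Of 10806 tested gene symbols with a 3′ UTR, 20.9% had at least 1 of these matches in the longest one. The Tfcp2l1 match lies at chr1:118683205-118683211 on the plus strand and is printed in capitals within chr1:118683194-118683222.
Tfcp2l1 site: ctcgatggccgAGCACTTcccaactgcga

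A match is a description and not evidence of binding. Over all tested genes, the median log2 change in miR-294 against CTR was -0.37 for 398 genes with AGCACTTA, -0.22 for 1503 genes with AGCACTT as their best match and -0.03 for 8544 genes with none. The 3 members that fell in miR-294 without such a match were Sox2, Nanog and Klf2, and their values are given further on.

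Because the factors bind one another's genes, their promoters were searched for short letters that resemble known binding elements, on both strands. All 10 genes matched the RefSeq promoter table (GRCm38.p6), with 14 windows of 300 bases, 250 before and 50 from the start site. The POU-type letters ATGCAAA stood in windows of Sox2, Nanog and Zfp42, and 4.63% of all 32851 windows held them. The SOX-type letters CATTGT stood in windows of Pou5f1, Nanog and Esrrb (12.6% of all windows). In Pou5f1 they stood only in the window chr17:35508557-35508856, which lies within the gene. The Pou5f1 window at the start of the gene, chr17:35505782-35506081, held none of the letters sought. In Esrrb they lay after the start site, at position 33. CATTGT followed after 1 base by ATGCAAA, the arrangement of the Oct4 and Sox2 composite element, was found in 2 of all windows (0.00609%), and these were the 2 overlapping windows of Nanog. KLF-type letters GGGTGTGG stood in the window of Zfp42 (3.56% of all), and GGGCGTGG in those of Nanog, Tfcp2l1 and Nr5a2 (5.33%). In Nr5a2 the match was only in the window chr1:136953581-136953880, which lies within the gene. The letters TCAAGGTCA, of the type bound by Esrrb and Nr5a2, was in no member's window and in 0.423% of all. The 2 sequences are shown for the composite arrangement in Nanog and for the POU- and KLF-type letters in Zfp42, which encodes Rex1, a zinc finger protein used as a naive marker. Matches are in capitals, and both run 5′ to 3′ towards the start site and end just before it. The Nanog stretch is chr6:122707239-122707488 on the plus strand, with the composite match at position -75 on the reverse strand and GGGCGTGG at -10. The Zfp42 stretch is chr8:43307010-43307259 on the minus strand, with the POU-type letters at -185 and the KLF-type letters at -75, both on the reverse strand.
Nanog promoter: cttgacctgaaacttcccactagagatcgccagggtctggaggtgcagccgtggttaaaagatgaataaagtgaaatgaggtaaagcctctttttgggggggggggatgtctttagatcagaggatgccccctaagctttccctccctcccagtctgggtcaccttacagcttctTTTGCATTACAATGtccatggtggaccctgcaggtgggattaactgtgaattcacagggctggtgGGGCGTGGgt
Zfp42 promoter: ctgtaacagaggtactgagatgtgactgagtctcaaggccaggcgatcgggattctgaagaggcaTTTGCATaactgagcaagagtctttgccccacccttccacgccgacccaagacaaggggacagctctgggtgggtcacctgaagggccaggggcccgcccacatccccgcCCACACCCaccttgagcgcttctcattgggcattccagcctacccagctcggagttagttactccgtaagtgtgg

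The libraries as a whole set the frame for these genes. Read depth is unknown, since the table holds no counts, and the RPKM of all entries summed to between 429460 and 493079 per library. Over the tested genes the CTR pair lay furthest apart, with a median absolute log2 difference between its libraries of 0.136, against 0.063 for the miR-294 pair and 0.060 for the siMbd2 pair. Over the 10 factors the same medians were 0.117, 0.034 and 0.041. Mbd2 stood at 26.8 and 27.9 RPKM in CTR, 11.3 and 12.3 in miR-294, and 7.33 and 6.34 with siMbd2, lowest in the group given its siRNA. Dgcr8 was listed at 6.66 to 8.44 RPKM in all 6 libraries, and a gene-level value does not show whether a transcript is intact. All 8 ESC markers were above 0 in every library. They include the members Pou5f1, Sox2, Nanog, Esrrb and Zfp42, which had already passed the filter, so for these the result adds little. The others were Fgf4, Utf1 and Dppa5a. Of other cell types, 2 of 8 fibroblast markers had an entry and summed to 1.15 to 1.64 RPKM in CTR and siMbd2 and 3.56 to 3.89 in miR-294. The 3 of 5 neural markers with an entry summed to 21.5 to 22.2 RPKM in CTR, 10.3 to 10.5 with miR-294 and 20.4 to 21.2 with siMbd2. This neural sum joins unlike members, since in siMbd2 against CTR Sox1 fell (-0.76) and Nes rose (0.68). The 5 of 7 trophoblast markers summed to 31.4 to 33.6, 19.5 to 19.8 and 24.3 to 25.4. That sum follows Tfap2c, which fell in miR-294 (-1.52), while 2 of the 4 tested trophoblast markers rose there, Hand1 (1.11) and Eomes (0.84). The 6 of 7 extraembryonic endoderm markers summed to at most 4.07 and the 3 of 5 mesoderm markers to at most 1.19 RPKM in any library. The endoderm sum also joins unlike members. In miR-294 against CTR Gata4, the 1 tested, fell (-0.95). Sox7, not tested, was at 0.10 and 0.20 RPKM in CTR and 1.28 and 1.15 in miR-294. Hand1, Eomes, Gata4 and Sox7 were named after their values were seen. Among the markers with an entry, Foxa2 was at 0 in 1 CTR library and Sox17 at 0 in 1 siMbd2 library. The part of such cells in the results was not tested, and in bulk RNA fewer cells of a type and less RNA per cell cannot be told apart.

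Pou5f1 was the most abundant of the 10 mRNAs in every library, and Nr5a2 the least. In CTR the order of mean RPKM was Pou5f1, Nanog, Sox2, Klf2, Zfp42, Esrrb, Klf4, Nr0b1, Tfcp2l1 and Nr5a2. The libraries of Zfp42 and Esrrb overlapped there, as did those of Klf4 and Nr0b1, and the other neighbours did not. In miR-294 Zfp42 stood beside Nanog, with overlapping libraries, and Nr0b1 stood above Klf4 and Tfcp2l1 without overlap. In siMbd2 the first 4 places were those of CTR, and Klf4 and Tfcp2l1 were the only neighbours whose libraries overlapped. Among all entries, Pou5f1 ranked between 73 and 92 and Nr5a2 between 5380 and 9004 over the 6 libraries.

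**Figure D1:**
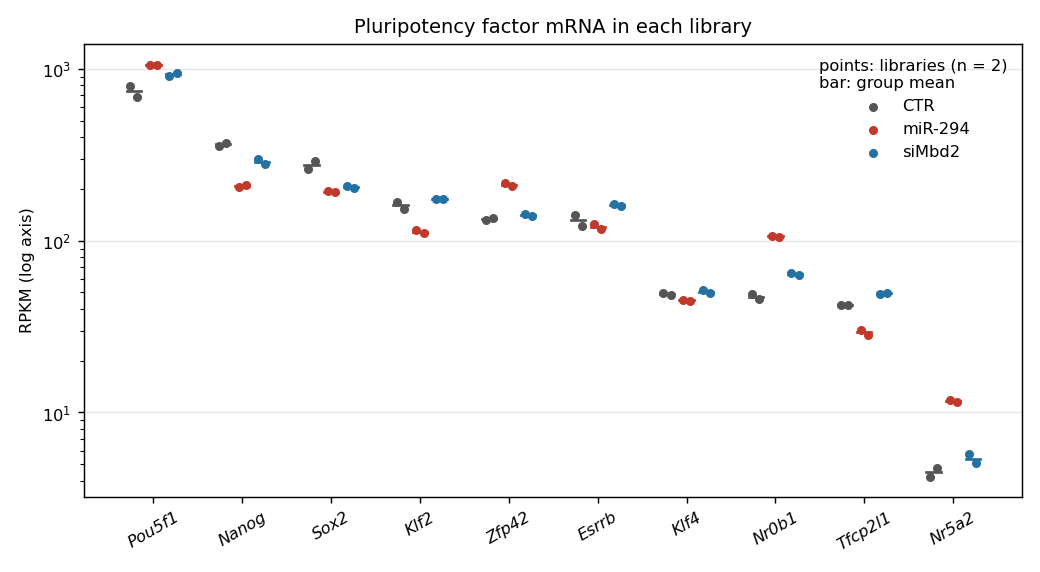
RPKM of the 10 genes in each library on a log axis, in order of their CTR mean, with points for the 2 libraries of a group and a bar for their mean. Pou5f1 lies between 689 and 1059 in all libraries, Nr5a2 between 4.24 and 11.8, and the miR-294 points of Nr0b1 and Nr5a2 stand well above the others.

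In miR-294 against CTR the 10 genes split, with 4 higher, 4 lower and 2 not called. A gene was called where its Benjamini-Hochberg adjusted p in limma was under 0.05, and rose, fell and changed below mean such calls. Pou5f1, Nr0b1, Nr5a2 and Zfp42 rose, Sox2, Nanog, Klf2 and Tfcp2l1 fell, and Klf4 and Esrrb were not called. Over all 11428 tested genes 27.7% were higher and 36.8% lower in this contrast, so a share of 4 in 10 each way is near the background. The libraries of the 2 groups did not overlap for 9 of the 10, Esrrb being the exception, against 81.0% of all tested genes. The members' median log2 change was -0.12, beside -0.08 over all tested genes. With quantile normalization the split was 4 higher and 6 lower, and with median-of-ratios scaling 4 and 4. Of all genes called in this contrast, 42.9% were higher as deposited and 51.3% with quantile normalization.

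In siMbd2 against CTR, 4 of the 10 rose, 2 fell and 4 were not called. Those that rose were Pou5f1, Esrrb, Tfcp2l1 and Nr0b1, and those that fell were Sox2 and Nanog. Over all tested genes 19.5% were higher and 14.9% lower. No member's libraries overlapped between the groups, which held for 67.6% of all tested genes. The members' median was 0.17, beside 0.02 over all. The number that rose was 1 with quantile normalization (2 lower) and also 1 without siMbd2 replicate 1 (2 lower) or replicate 2 (1 lower), while median-of-ratios scaling gave 4 higher and 2 lower.

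In miR-294 against siMbd2, the direct test of the difference between the treatments, 3 were higher, 5 lower and 2 not called. The spread in this fit includes the CTR pair. With only the 4 miR-294 and siMbd2 libraries fitted, or without either CTR library, all 10 were called, 4 higher and 6 lower. Nr0b1, Nr5a2 and Zfp42 were higher with the mimic, Nanog, Klf4, Klf2, Esrrb and Tfcp2l1 were lower, and Pou5f1 and Sox2 were not called. Over all tested genes 21.9% were higher and 35.5% lower, and 84.1% had libraries that did not overlap, as all 10 members had. The members' median was -0.13, beside -0.08 over all. With median-of-ratios scaling the split was 4 higher and 4 lower. Of all genes called in this contrast, 38.1% were higher as deposited, 51.5% with quantile normalization and 47.7% with median-of-ratios scaling. Quantile normalization moved the median of all tested genes from -0.08 to 0.03. Relative to these medians some factors moved more than others. Pou5f1 went from 0.27 as deposited to -0.04 after quantile normalization, Sox2 from -0.01 to -0.29, Esrrb from -0.33 to -0.58 and Zfp42 from 0.66 to 0.40, while Tfcp2l1 stood at -0.66 and -0.71 and Nr5a2 at 1.07 and 1.12.

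**Figure D2:**
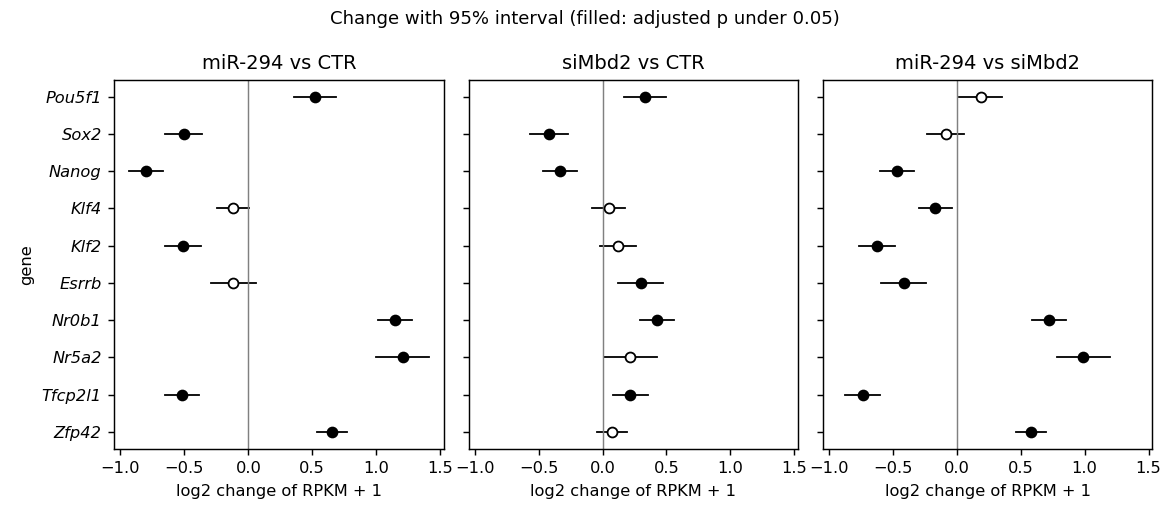
Log2 change of RPKM + 1 for each gene in the 3 contrasts, with 95% intervals from limma and filled points where the adjusted p was under 0.05. In miR-294 vs CTR the points run from -0.80 for Nanog to 1.21 for Nr5a2, and in siMbd2 vs CTR from -0.42 for Sox2 to 0.43 for Nr0b1.

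**Figure D3:**
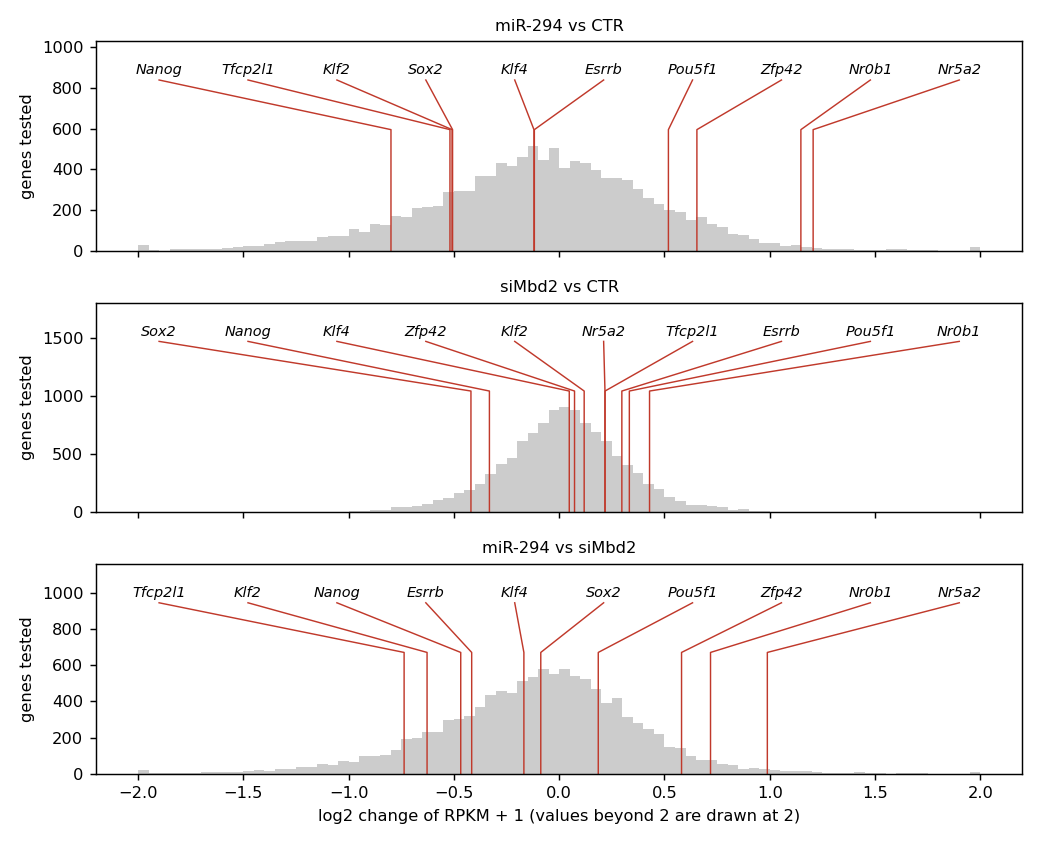
Histograms of the log2 change of all 11428 tested genes in each contrast, with a red line at each of the 10 genes, joined to its name. In miR-294 vs CTR Nr0b1 and Nr5a2 lie in the right tail, while Klf4 and Esrrb lie near the median of -0.08.

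Of the core trio, Pou5f1 moved opposite to Sox2 and Nanog with both treatments. Both contrasts use the same CTR libraries, so they are not independent observations. Pou5f1 (ENSMUSG00000024406.16, chr17:35506018-35510772, plus strand) encodes the POU factor Oct4. Its level was 790.4 and 689 RPKM in CTR, 1059 and 1056 in miR-294, and 914 and 946 with siMbd2. The 3 groups did not overlap, with CTR lowest and miR-294 highest. Pou5f1 rose from 739.6 ± 71.8 RPKM (SD, n = 2) to 1058 ± 1.75 in miR-294, a ratio of means of 1.43 and a log2 change of RPKM + 1 of 0.52 (SE 0.072, adjusted p = 0.000313, limma). It rose to 930.0 ± 22.1 in siMbd2 (log2 change 0.33, adjusted p = 0.00933). The difference between the treatments was 0.19 (95% interval 0.02 to 0.35, adjusted p = 0.0549). It was called with median-of-ratios scaling (0.27, adjusted p = 0.0035), with only the 4 libraries compared (0.00113) and without CTR replicate 1 or 2 (0.00126 and 0.00122), and with quantile normalization it was -0.01 (0.852). The rise over CTR was sensitive to scaling: with quantile normalization it was 0.14 in miR-294 (adjusted p = 0.0467) and 0.15 in siMbd2 (adjusted p = 0.0547). Without siMbd2 replicate 1 or 2 the siMbd2 call was also lost, at an adjusted p of 0.0521 and 0.0864.

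Sox2 (ENSMUSG00000074637.7, chr3:34650405-34652461, plus strand) encodes the HMG-box partner of Oct4. It was listed at 259.8 and 289 RPKM in CTR, 194 and 191 in miR-294, and 208 and 201 with siMbd2. Both treated groups lay below CTR and did not overlap, with miR-294 a little under siMbd2. Sox2 fell from 275 ± 20.8 RPKM to 193 ± 2.26 with the mimic (log2 change -0.51, SE 0.064, adjusted p = 0.000176) and to 205 ± 4.77 with the siRNA (-0.42, adjusted p = 0.00213). The treatments differed by -0.09 (95% interval -0.23 to 0.06, adjusted p = 0.267), which does not show that they act alike. That difference was called with quantile normalization (-0.27, adjusted p = 0.00627), with only the 4 libraries compared (0.0442) and without CTR replicate 1 or 2 (0.0432 and 0.0435). With quantile normalization the fall in miR-294 was -0.78 (adjusted p = 2.11e-05).

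Nanog (ENSMUSG00000012396.12, chr6:122707489-122714633, plus strand), the homeodomain factor whose promoter is printed above, had the lowest log2 change of the 10 with the mimic. Its level was 354 and 372 RPKM in CTR, 206 and 211 in miR-294, and 297 and 279 with siMbd2. The groups formed 3 separate steps, with siMbd2 between the others. Nanog fell from 363 ± 12.7 RPKM to 208 ± 3.43 in miR-294, a ratio of 0.574 and a log2 change of -0.80 (SE 0.057, adjusted p = 1.09e-05). In siMbd2 it fell to 288 ± 12.6 (-0.33, adjusted p = 0.00369), a call lost without siMbd2 replicate 2 (adjusted p = 0.0584). It was lower with the mimic than with the siRNA by -0.47 (adjusted p = 0.000225). Mouse Pou5f1 and Nanog have processed pseudogenes and Sox2 lies within the Sox2ot transcript, and no source used here gives how shared reads were assigned.

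Ratios taken within a library show this shift among the trio, and they do not depend on a common scale factor of the library. Pou5f1 over Nanog was 2.23 and 1.85 in CTR, 5.15 and 5.02 in miR-294, and 3.08 and 3.39 with siMbd2. Pou5f1 over Sox2 was 3.04 and 2.38, 5.45 and 5.53, and 4.39 and 4.69 in the same order. For both ratios the groups did not overlap, with CTR lowest and miR-294 highest. Sox2 over Nanog moved less, at 0.734 and 0.778 in CTR, 0.945 and 0.908 in miR-294, and 0.701 and 0.721 with siMbd2. The summed RPKM of the 10 genes was 1991 and 1903 in CTR, 2109 and 2083 in miR-294, and 2073 and 2068 with siMbd2. As a share of the summed RPKM of all entries it was lower with the mimic. That share was 0.442% and 0.443% in CTR, 0.428% and 0.426% in miR-294, and 0.441% and 0.445% with siMbd2. Of the sum of the 10 genes, Pou5f1 made up 39.7% and 36.2% in CTR, 50.2% and 50.7% in miR-294, and 44.1% and 45.7% with siMbd2. Nanog made up 17.8% and 19.5%, 9.75% and 10.1%, and 14.3% and 13.5%.

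**Figure D4:**
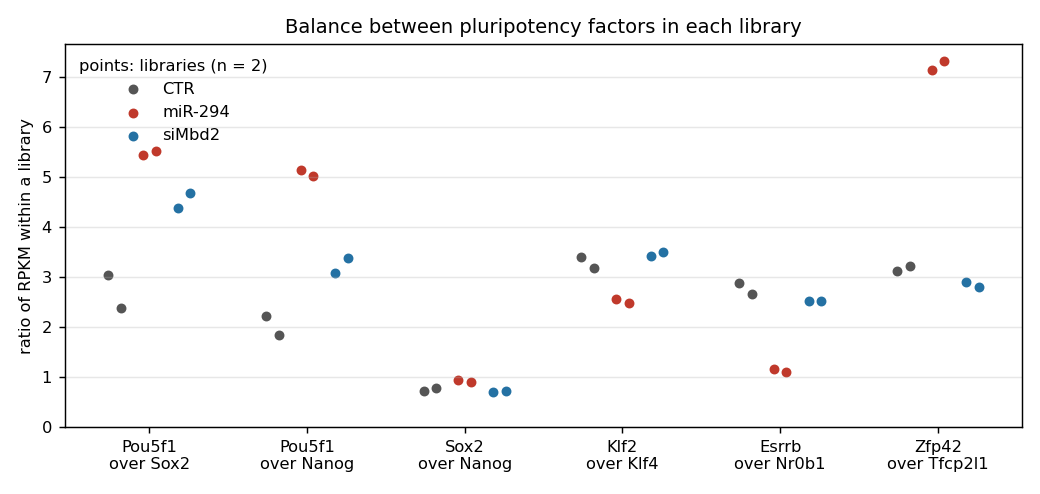
Ratio of the RPKM of 2 genes within each library for 6 pairs, with a point for each library. Pou5f1 over Nanog is 1.85 to 2.23 in CTR and 5.02 to 5.15 in miR-294, and Zfp42 over Tfcp2l1 is near 3 in CTR and above 7 in miR-294.

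The Krüppel-like factors differed from each other. Klf2 (ENSMUSG00000055148.7, chr8:72319033-72321656, plus strand) was listed at 169 and 154 RPKM in CTR, 115 and 111 in miR-294, and 176 and 174 with siMbd2. The miR-294 libraries lay below all others. Klf2 fell from 161 ± 10.7 RPKM to 113 ± 3.33 with the mimic (log2 change -0.51, SE 0.061, adjusted p = 0.000144) and was lower there than in siMbd2 by -0.63 (adjusted p = 7.3e-05). In siMbd2 against CTR it was not called at 0.12 (95% interval -0.02 to 0.26, adjusted p = 0.166), and it was called without CTR replicate 1 (0.19, adjusted p = 0.0102).

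Klf4 (ENSMUSG00000003032.8, chr4:55527143-55532466, minus strand), also one of the classical reprogramming factors, varied least of the 10, its highest library being 1.15 times its lowest. It was listed at 49.5 and 48.2 RPKM in CTR, 45.1 and 44.6 in miR-294, and 51.5 and 49.6 with siMbd2. The miR-294 libraries were again the lowest, by a small margin. Klf4 was not called in miR-294 against CTR (-0.12, 95% interval -0.25 to 0.01, adjusted p = 0.0911) or in siMbd2 against CTR (0.05, -0.08 to 0.18, adjusted p = 0.539). The first was called with quantile normalization (-0.19, adjusted p = 0.016) and without CTR replicate 2 (-0.14, adjusted p = 0.0327). Against siMbd2 it was lower in miR-294 by -0.17 (adjusted p = 0.0311), and this call was lost when scaled by median-of-ratios (-0.09, adjusted p = 0.183), with no intensity trend (0.0631) and without any 1 of the 4 miR-294 and siMbd2 libraries (0.0998 to 0.212). Klf2 over Klf4 was 3.41 and 3.19 in CTR, 2.56 and 2.48 in miR-294, and 3.42 and 3.51 with siMbd2.

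Among the nuclear receptors, Nr0b1 and Nr5a2 rose with the mimic and Esrrb was not called. Nr0b1 (ENSMUSG00000025056.4, chrX:86191764-86195947, plus strand) encodes Dax1, an orphan receptor that binds Oct4 and Esrrb and can restrain their activity. It was listed at 48.9 and 45.6 RPKM in CTR, 107 and 105 in miR-294, and 64.7 and 63.3 with siMbd2. The 3 groups were well apart, with siMbd2 nearer to CTR. Nr0b1 rose from 47.3 ± 2.34 RPKM to 106 ± 1.19 in miR-294, a ratio of 2.24 and a log2 change of 1.15 (SE 0.058, adjusted p = 2.83e-06). In siMbd2 it rose to 64.0 ± 0.97 (0.43, adjusted p = 0.00138), the highest log2 change of the 10 in that contrast, and the mimic exceeded the siRNA by 0.72 (adjusted p = 2.89e-05).

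Nr5a2 (ENSMUSG00000026398.14, chr1:136842571-136960448, minus strand) encodes Lrh1, a receptor that can activate Pou5f1 and replace it in reprogramming. It was the scarcest of the mRNAs, at 4.24 and 4.76 RPKM in CTR, 11.8 and 11.5 in miR-294, and 5.70 and 5.09 with siMbd2. The miR-294 libraries stood well above the rest, and siMbd2 lay just above CTR without overlap. Nr5a2 rose from 4.50 ± 0.37 RPKM to 11.7 ± 0.22 with the mimic, a ratio of 2.59 and a log2 change of RPKM + 1 of 1.21 (SE 0.091, adjusted p = 1.31e-05). In siMbd2 the change was 0.22 (95% interval 0.01 to 0.42, adjusted p = 0.0954), which was called without CTR replicate 2 (0.29, adjusted p = 0.0403). The mimic exceeded the siRNA by 0.99 (adjusted p = 5.29e-05).

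Esrrb (ENSMUSG00000021255.17, chr12:86361117-86521628, plus strand) encodes an orphan receptor that can substitute for Nanog in self-renewal. It was listed at 141 and 122 RPKM in CTR, 125 and 116 in miR-294, and 163 and 159 with siMbd2. The miR-294 and CTR libraries overlapped, and siMbd2 lay above both. In miR-294 against CTR the change was -0.12 (95% interval -0.29 to 0.06, adjusted p = 0.205). This contrast was called with quantile normalization (-0.35, adjusted p = 0.00297) and without CTR replicate 2 (-0.22, adjusted p = 0.00698). Esrrb rose from 131 ± 13.5 RPKM to 161 ± 2.74 in siMbd2 (0.30, adjusted p = 0.0182) and was lower in miR-294 than in siMbd2 by -0.42 (adjusted p = 0.00188). The rise in siMbd2 was 0.19 without CTR replicate 2 (adjusted p = 0.0248). Its call was lost with quantile normalization (adjusted p = 0.0524) and without siMbd2 replicate 1 or 2 (0.11 and 0.0917). Esrrb over Nr0b1 was 2.88 and 2.67 in CTR, 1.17 and 1.11 in miR-294, and 2.53 and 2.52 with siMbd2.

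Tfcp2l1 and Zfp42 moved in opposite directions with the mimic. Tfcp2l1 (ENSMUSG00000026380.10, chr1:118627945-118685168, plus strand) carries the seed match printed above and is a STAT3 target that sustains naive self-renewal. Both CTR libraries were at 42.4 RPKM, miR-294 at 30.1 and 28.4, and siMbd2 at 49.0 and 49.8. The groups did not overlap and lay on either side of CTR. Tfcp2l1 fell to 29.3 ± 1.21 RPKM in miR-294 (log2 change -0.52, SE 0.059, adjusted p = 0.000101) and rose to 49.4 ± 0.56 in siMbd2 (0.22, adjusted p = 0.0224). The rise was not called with quantile normalization (0.14, adjusted p = 0.0882) or without siMbd2 replicate 1 or 2 (adjusted p = 0.115 and 0.163). The direct difference of -0.74 (adjusted p = 2.77e-05) was the lowest of the 10 in miR-294 against siMbd2.

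Zfp42 (ENSMUSG00000051176.6, chr8:43295063-43306980, minus strand) was listed at 132 and 136 RPKM in CTR, 215 and 208 in miR-294, and 143 and 139.9 with siMbd2. The miR-294 libraries stood apart, and siMbd2 lay just above CTR. Zfp42 rose from 134 ± 2.86 RPKM to 212 ± 4.86 with the mimic (log2 change 0.65, SE 0.052, adjusted p = 1.69e-05) and exceeded siMbd2 by 0.58 (adjusted p = 4.9e-05). With quantile normalization the rise over CTR was 0.40 (adjusted p = 0.000366). In siMbd2 the change was 0.07 (95% interval -0.05 to 0.19, adjusted p = 0.31). Zfp42 over Tfcp2l1 was 3.12 and 3.22 in CTR, 7.14 and 7.33 in miR-294, and 2.91 and 2.81 with siMbd2.

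Profiles over the 6 libraries were compared by the root mean square distance between log2(RPKM + 1) values centred on each gene's mean, where 0 is the same profile. Klf2 and Tfcp2l1 were the closest pair of members, at 0.064, followed by Klf4 and Esrrb at 0.130 and Nr0b1 and Nr5a2 at 0.138. Sox2 and Nanog stood at 0.166 and Pou5f1 and Zfp42 at 0.180. The members most unlike each other were Nanog and Nr5a2, at 0.847. Among 8387 genes averaging 5 RPKM or more, the profiles nearest to Pou5f1 were those of Rcl1 (0.0136), Smg5 (0.021) and Fiz1 (0.0278). Those nearest to Sox2 were Arl15 (0.0172), Zfp97 (0.0257) and Ogt (0.0286), and those nearest to Nanog were Stx7 (0.0176), Crot (0.0349) and Stk3 (0.0367). Each of these 9 genes was nearer to its factor than any other member was. They were picked as the nearest among 8387 genes and the members are few, so this was nearly fixed in advance. It says nothing about how the members relate.

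The wider pluripotency network mostly rose with the mimic. For all tested genes the medians were -0.08 in miR-294 against CTR, 0.02 in siMbd2 against CTR and -0.08 in miR-294 against siMbd2. In that order the shares called higher were 27.7%, 19.5% and 21.9%, and those called lower 36.8%, 14.9% and 35.5%. These are the background for each list below. Of 28 other network genes, 19 rose and 4 fell in miR-294 against CTR, with a median log2 change of 0.35. Gbx2, a homeobox gene downstream of STAT3, rose from 6.44 to 36.4 RPKM (2.33, adjusted p = 1.21e-06), and Prdm14, which represses Dnmt3 genes and FGF signalling, fell from 13.2 to 7.44 (-0.75, adjusted p = 0.000114). With the siRNA 11 rose and 2 fell against CTR, with a median of 0.13. Tcl1, an Akt coactivator, rose from 16.6 to 31.1 RPKM (0.88, adjusted p = 0.000934), and Fbxo15, an Oct4 and Sox2 target, fell from 87.7 to 69.4 (-0.33, adjusted p = 0.00267). In miR-294 against siMbd2 17 were higher and 6 lower, with a median of 0.31, led by Gbx2 (1.64) and Prdm14 (-0.62).

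LIF and STAT3 pathway genes mostly fell with the mimic. Of 12, 8 fell and 4 rose in miR-294 against CTR, with a median of -0.35, where 36.8% of all tested genes fell and 27.7% rose. Jak2, a receptor-associated kinase, fell from 6.78 to 2.04 RPKM (log2 change -1.36, adjusted p = 1.04e-05), and Socs2, a feedback inhibitor of cytokine signalling, rose from 17.0 to 31.5 (0.85, adjusted p = 7.89e-05). Il6st encodes gp130, the signalling receptor subunit for LIF. It stood at 46.5 and 46.1 RPKM in CTR, 17.7 and 18.8 in miR-294, and 45.4 and 46.2 with siMbd2. The mimic was lower than the siRNA by -1.28 (adjusted p = 4.17e-06), and siMbd2 overlapped CTR. With the siRNA 1 rose and 2 fell against CTR, with a median of -0.01, and the called extremes were Socs2 (0.58, adjusted p = 0.00253) and the LIF receptor gene Lifr, from 12.5 to 9.76 RPKM (-0.33, adjusted p = 0.00935). With quantile normalization the siMbd2 split was 1 higher and 1 lower. In miR-294 against siMbd2 4 were higher and 7 lower, with a median of -0.30, and the highest was the kinase gene Pim3 (0.31, adjusted p = 0.0316). With quantile normalization that split was 5 and 5.

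Genes that repress the network or act for or against exit from the naive state had no common direction. Of 16, 5 rose and 6 fell in miR-294 against CTR, with a median of -0.03 that turned to 0.04 with quantile or median-of-ratios scaling. Over all tested genes 27.7% rose and 36.8% fell there, so this split is near the background. Tfe3, whose nuclear form sustains Esrrb expression and resists exit, rose from 21.6 to 42.6 RPKM (0.95, adjusted p = 1.55e-05). Gsk3b, the kinase inhibited in naive culture media, fell from 20.5 to 10.5 (-0.91, adjusted p = 0.00039). Tfe3 was the 1 gene called in siMbd2 against CTR (0.76, adjusted p = 0.000451), with a median of 0.08, and quantile normalization gave 2 higher and 1 lower. In miR-294 against siMbd2 4 were higher and 5 lower, with a median of -0.15, and median-of-ratios scaling gave 5 and 4. Gsk3b had the lowest log2 change among them (-0.72, adjusted p = 0.00185).

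Of the primed and formative markers, which rise as ESCs leave the naive state, 11 of 12 were tested. In miR-294 against CTR 7 rose and 4 fell, with a median of 0.87, where 27.7% of all tested genes rose and 36.8% fell. Etv4, an FGF-responsive ETS factor, rose from 23.9 to 72.3 RPKM (1.56, adjusted p = 2.88e-06), and Cdh2, the N-cadherin gene, fell from 5.71 to 1.77 (-1.27, adjusted p = 1.05e-05). With the siRNA 4 rose and 1 fell against CTR, with a median of -0.08, and Etv4 rose to 47.1 RPKM (0.95, adjusted p = 0.000268). In miR-294 against siMbd2 8 were higher and 3 lower, with a median of 0.61. Among those whose higher group averaged at least 5 RPKM, Dnmt3a, a de novo DNA methyltransferase, was highest (1.40, adjusted p = 4.76e-05). Otx2, a factor of the formative state, was lowest among them (-1.10, adjusted p = 1.82e-05). Below that limit Lef1 was higher still (1.66) and Cdh2 lower still (-1.11).

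Of 18 early lineage markers 11 were tested. In miR-294 against CTR 3 rose and 5 fell, with a median of -0.11, and with quantile normalization the split was 4 and 4. Over all tested genes as deposited 27.7% rose and 36.8% fell there, so the first split is near the background. The keratin gene Krt18 rose from 19.4 to 28.3 RPKM (0.53, adjusted p = 0.000694), and the neural factor gene Sox1 fell from 8.32 to 3.29 (-1.12, adjusted p = 2.41e-05). In siMbd2 against CTR 5 rose and 3 fell, with a median of 0.23, from Krt19 (0.88, adjusted p = 0.000419) to Sox1 (-0.76, adjusted p = 0.00114). In miR-294 against siMbd2 2 were higher and 7 lower, with a median of -0.60, and Pax6, a neural and eye factor, was at 4.20 against 9.55 RPKM (-1.02, adjusted p = 7.67e-05). The contrasts of miR-294 and siMbd2 with CTR share the CTR libraries, so their values are given side by side and not correlated.

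**Figure D5:**
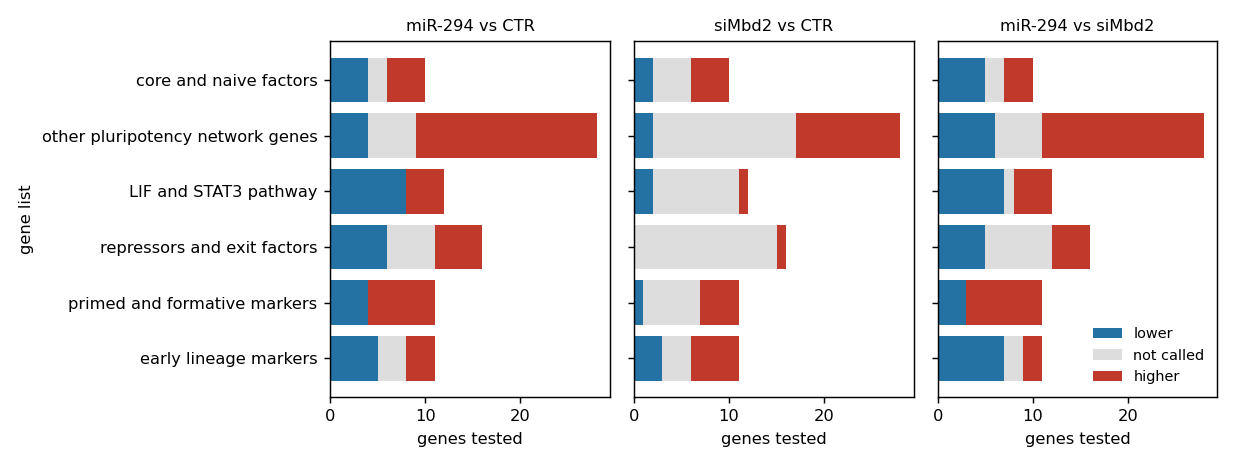
Number of tested genes called lower, not called and called higher for the 10 core and naive factors and the 5 other lists, in the 3 contrasts. In miR-294 vs CTR the factors split 4 higher and 4 lower, and the other network genes 19 higher and 4 lower.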

How the data were processed

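Paired-end RNA-seq of 6 libraries in 3 groups was analysed. The authors deposited 1 RPKM value per gene and library, per the file headers, each sample being described as an average over sequencing lanes. The deposited ratio columns are the authors' fold over CTR and were not used in tests. The submitters' processing notes name CASAVA 1.7, STAR 2.3.0, Cufflinks and the mm10 build, with no source used here giving the annotation or the read assignment. The deposited values hold no read counts, so depth and counting error are unknown. Entries with a mean of at least 1 RPKM were fitted as log2(RPKM + 1), a scale that understates changes of low genes. One limma 3.58.1 model (R 4.3.3) with 3 groups and an intensity trend had 3 residual and 5.38 prior degrees of freedom and gave two-sided tests. The code was also run on simulated data with far fewer changed genes than were called here, which does not test these calls. P-values were adjusted over all tested genes within a contrast. With 2 libraries on each side the smallest p of an exact permutation test is 0.333, so calls rest on the spread shared across genes. Tables and searches used Python 3.11.15, numpy 2.4.6 and pandas 2.3.3, and plots matplotlib 3.10.9. The text names all 10 factors, Mbd2 and Dgcr8, the 3 nearest profiles of Pou5f1, Sox2 and Nanog, and for each list the called genes with the highest and lowest log2 change whose higher group had at least 5 RPKM; 1 gene that this rule takes is not reported here. The genes and lists were chosen with earlier results of these data known. Alternatives were other pseudocounts, filters, scalings and variance models, the 4 libraries compared alone, a replicate block and leaving out each library.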

Additional observations from a re-analysis of the deposited data

How the results depend on the processing

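Of 30 pairs of gene and contrast, 17 kept their direction and side of the threshold under all 16 alternatives, among them every pair of Nr0b1 and the falls of Nanog, Sox2, Klf2 and Tfcp2l1 in miR-294 against CTR. The number of factors changed in siMbd2 against CTR was 6, became 3 with quantile normalization and ranged from 2 to 7 when 1 library was left out: 3 without siMbd2 replicate 1, 2 without siMbd2 replicate 2 and 7 without either CTR library. With quantile normalization the direction turned for Klf4 (-0.0352) and Zfp42 (-0.0205) in siMbd2 against CTR and for Pou5f1 (-0.0128) in miR-294 against siMbd2, none of them called in either form, and the cause was not tested. The replicate block gave 8, 6 and 9 changed factors in miR-294 against CTR, siMbd2 against CTR and miR-294 against siMbd2, the added call being Pou5f1 (0.19, adjusted p = 0.0494). Deviations of same-numbered libraries correlated at 0.119 between CTR and miR-294, 0.132 between CTR and siMbd2 and 0.022 between miR-294 and siMbd2. The labels give no pairing, and these values cannot tell whether same-numbered libraries shared a culture or a day. Where a group keeps 1 library, it is assumed to vary like the others. With 2 libraries a group, unknown depth and no counts, small differences such as those of Klf4 are not settled.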
